A study of Arabidopsis thaliana with 6 samples.

Results

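Genes whose transcript level barely changes between tissues serve as internal standards when other transcripts are measured, and they also show which cell functions stay level while cells specialize. Here such genes were taken from RNA-seq of the Arabidopsis inflorescence stem, where tissues were cut out by laser capture microdissection (LCM), a method in which a laser isolates chosen areas of a tissue section. Genes were selected on their CPM, the read count of a gene scaled to library size with edgeR's TMM factors. A gene was included if its CPM was at least 50 in every one of the 6 libraries and its highest CPM was at most 1.4 times its lowest. This rule, which uses the very values described below, gave 122 genes of 37051 counted. They were 5.47% of the 2231 genes that reached 50 CPM in every library, which are called genes at the CPM floor below.

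All libraries came from the second internode of soil-grown Col-0 plants that had been moved from short to long days to induce flowering. Libraries S30 and S31 were made from the vascular bundle after removal of its phloem cap, S32 and S33 from that phloem cap, and S34 and S35 from the pith, 2 per tissue. No treatment, mutation or transgene was involved, and each group is a dissected area of several cell types rather than 1 cell type. Nothing in the labels says whether the 2 libraries of a tissue came from separate plants, so the spread between them may be technical. The phloem cap is a strand of cells outside the phloem, the vascular bundle holds xylem, cambium and phloem, and the pith is the parenchyma in the stem centre.

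Library totals lay between 19324189 and 22571632 counts, so that 50 CPM stood for 909 to 1192 counts. Counting error was not estimated, and it may be a sizeable part of the spread in the genes with the lowest ratios. The tissue labels were checked with marker genes. The summed CPM of 5 phloem cap markers was 4172 and 3837 in the phloem cap against 159 to 1534 elsewhere. For 5 xylem markers it was 4959 and 5182 in the bundle against 154 to 663, and for 4 pith markers 206 and 280 in the pith against 2.80 to 10.9. The study had picked MYB29 (phloem cap), CLE46 and AGP26 (pith) for being higher in these same libraries, so these are no independent check. The other pith markers were known before, ANAC074 with 15.7 and 11.2 CPM in the pith (at most 0.965 elsewhere) and AT2G38380 with 46.8 and 163 (at most 1.26). Markers of other cell types varied between tissues as well. The summed CPM of 4 phloem markers was 1147 and 776 in the bundle but 1886 and 1282 in the phloem cap, against 44.3 and 57.7 in the pith. For 3 epidermis markers it was 82.7 and 103 in the bundle against 1.74 to 22.3. ATML1 and FDH carried this sum, whereas LTP1, the third, had 0.522 and 0.427 CPM in the bundle and 0.0527 to 7.23 elsewhere. SCR, which marks the starch sheath, had 19.9 and 26.9 CPM in the pith against 3.42 to 10.6. The cambium markers WOX4 and ANT were highest in the phloem cap, ANT with 168 and 197 CPM against 91.8 and 61.4 in the bundle, and near 0 in the pith (at most 2.90 CPM), whereas PXY, the third, had 280 to 573 CPM in every library. RNA had been amplified in 2 rounds before sequencing, so counts are not independent molecules. In dissected tissue, fewer cells of a type and less RNA per cell cannot be told apart.

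All 122 genes encode proteins. Some belong to machinery that every living plant cell runs. Ribosomes and translation factors make proteins, and the proteasome (a barrel-shaped protease fed by a ring of ATPases) removes them. The spliceosome processes transcripts, clathrin and other coats move membrane vesicles, and the mitochondrial respiratory chain supplies ATP. Reading the product names sorted 98 of the 122 genes into 10 broad roles, and 24 were left without one. Protein synthesis was the largest role with 18 genes, followed by protein folding and breakdown with 14, RNA processing and decay with 13, membrane traffic and the secretory pathway with 12, metabolism with 11, signalling with 10, mitochondrial respiration with 8, and chromatin and transcription with 6. Transport across membranes and the cytoskeleton had 3 genes each. These roles were assigned after the genes were known and carry no test. The other genes at the CPM floor were given no roles, so the counts do not set even genes apart from them.

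The upstream sequence of the most even gene and of the 3 lowest-ratio genes carrying both of 2 short motifs before their start is shown first, because motif content is a property that the selection did not use. Each line gives the 250 bases before the annotated gene start in the TAIR10.1 sequence, 5′ to 3′ on the strand of the gene. SSI2 lies on the + strand (chr2:18119623-18119872), LOS1 on the - strand (chr1:20971743-20971992), AT3G24830 on the + strand (chr3:9064275-9064524) and AT2G33220 on the + strand (chr2:14078600-14078849). Capitals mark TATAAA in SSI2, and the site II motif TGGGCC and the telo-box AAACCCTA in the other genes, on either strand.
SSI2: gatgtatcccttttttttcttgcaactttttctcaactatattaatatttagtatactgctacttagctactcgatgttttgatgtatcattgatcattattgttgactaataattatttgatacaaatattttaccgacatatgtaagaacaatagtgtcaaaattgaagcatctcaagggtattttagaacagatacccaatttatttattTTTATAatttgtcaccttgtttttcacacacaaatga
LOS1: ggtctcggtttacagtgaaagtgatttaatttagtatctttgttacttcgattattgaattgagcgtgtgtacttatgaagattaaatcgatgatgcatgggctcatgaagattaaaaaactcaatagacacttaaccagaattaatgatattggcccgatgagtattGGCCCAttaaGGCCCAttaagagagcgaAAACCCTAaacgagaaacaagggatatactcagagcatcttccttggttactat
AT3G24830: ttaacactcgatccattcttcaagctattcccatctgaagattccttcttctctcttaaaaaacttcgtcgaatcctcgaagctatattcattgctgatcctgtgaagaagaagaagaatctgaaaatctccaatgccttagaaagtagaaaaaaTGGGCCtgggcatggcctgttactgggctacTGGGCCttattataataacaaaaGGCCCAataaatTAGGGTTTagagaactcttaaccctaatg
AT2G33220: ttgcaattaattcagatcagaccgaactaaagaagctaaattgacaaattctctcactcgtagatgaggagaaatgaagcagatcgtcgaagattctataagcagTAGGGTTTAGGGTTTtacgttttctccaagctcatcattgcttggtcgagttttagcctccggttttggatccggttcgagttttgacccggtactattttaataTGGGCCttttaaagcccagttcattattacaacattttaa

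Site II motifs and telo-boxes are known from promoters of plant ribosomal protein genes. In a window from 250 bases before to 50 bases after the start, searched on both strands, TGGGCC occurred in 38 of the 122 even genes (31.1%), against 22.6% of the other genes at the CPM floor and 15.5% of all protein-coding genes. AAACCCTA occurred in 14 even genes (11.5%), against 6.31% and 6.22%. Both motifs occurred together in 7 even genes (5.74%) and in 3.27% of the other genes at the CPM floor. Of the 18 protein synthesis genes, 10 held TGGGCC and 5 held AAACCCTA. Protein synthesis genes that were not even were not counted, so motif shares by evenness and by function cannot be told apart. TATAAA was about as frequent in even genes (52.5%) as in the other genes at the CPM floor (51.2%) and in all protein-coding genes (52.1%). The G-box CACGTG, a palindrome bound by light- and stress-related factors, was found in 5 even genes (4.10%), against 10.7% and 7.68%. No test was applied to these shares, and a match describes letters in a window and does not show that a factor binds there. Even genes had a median of 6 exons, against 5 in the other genes at the CPM floor and 4 in all protein-coding genes, and 7.38% had no intron, against 11.4% and 20.4%.

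Few genes met the rule, and fewer were far inside it. Over the 2231 genes at the CPM floor, the highest-to-lowest ratio had a median of 2.15 and reached 67.9. Only 12 genes had a ratio of at most 1.2, while 110 lay between 1.2 and 1.4, and 234 followed between 1.4 and 1.6. The median ratio of the even genes was 1.32. Just inside the limit lay GAMMA CA2, PH1 and PSRP5 with ratios of 1.398, 1.398 and 1.399, and just outside AT4G16450, LOS4 and RABA2c with 1.401, 1.403 and 1.406. GAMMA CA2 and AT4G16450 both encode subunits of respiratory complex I, so the limit separated genes of the same complex. At the CPM floor, the lowest libraries of AT1G19835, AT2G33730 and FZF were just inside with 51.1, 51.1 and 51.3 CPM, and those of AT1G48440, MGP2 and CARAB-AK-LYS just outside with 49.0, 49.2 and 49.8 CPM.

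**Figure D1:**
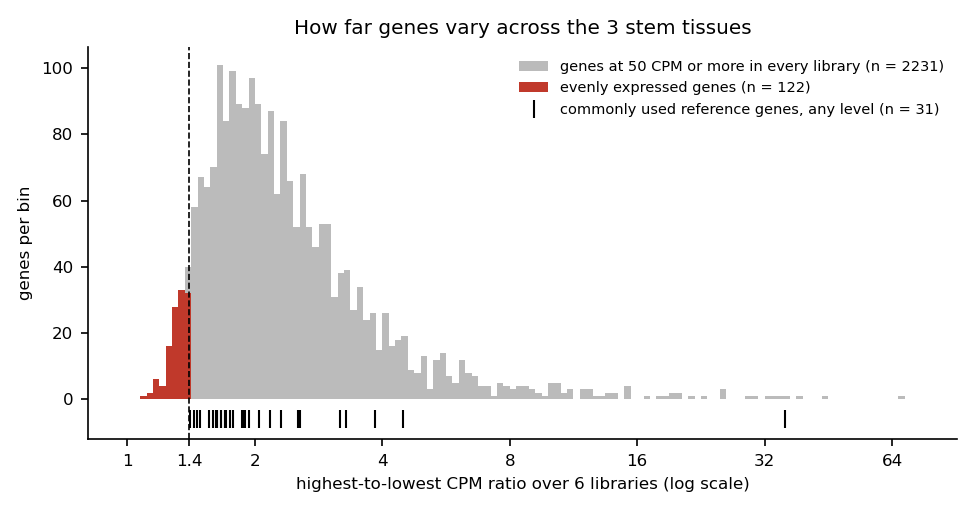
Number of genes by their highest-to-lowest CPM ratio over the 6 libraries (log axis), for the 2231 genes at the CPM floor (grey) and the 122 even genes (red), with the 31 commonly used reference genes as ticks below the axis. The dashed line is the ratio of 1.4; no tick falls to its left, and the tick farthest right is ROC1 at 35.7.

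The most even gene was SSI2 (AT2G43710, chr2:18119873-18122889), a stearoyl-acyl carrier protein desaturase that puts the first double bond into plastid fatty acids. Its CPM was 165 and 182 in the vascular bundle, 173 and 165 in the phloem cap, with 173 and 174 in the pith, a ratio of 1.10. The tissues overlapped completely, and both the highest and the lowest value came from the vascular bundle. MGP1 (AT2G21870, chr2:9320190-9322867), a subunit of the mitochondrial ATP synthase, had 262 and 251 CPM in the bundle, 272 and 267 in the phloem cap, with 244 and 250 in the pith. Here both phloem cap libraries lay above the other 4, and the ratio was 1.12. SPPL3, an intramembrane protease of the signal peptide peptidase family, followed with 59.6 and 66.6, 62.1 and 66.8, and 59.98 and 64.7 CPM in the same order of tissues.

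GRF9, a 14-3-3 protein that binds phosphorylated partners, had 224 and 257 CPM in the bundle, 234 and 230 in the phloem cap, with 223 and 223 in the pith. One bundle library (S31) set its ratio of 1.15. KAK, the HECT ubiquitin ligase that restrains trichome branching, had 75.9 and 77.8 CPM in the bundle, 87.7 and 85.3 in the phloem cap, with 87.9 and 85.4 in the pith. Both bundle libraries were therefore below the 4 others, although by a ratio of only 1.16. AT4G20150, which an annotation note places in mitochondrial complex I although its product name says otherwise, had 280 and 289, 251 and 257, and 292 and 251 CPM.

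RPT6A, an ATPase of the proteasome base, had 219 and 202 CPM in the bundle, 214 and 205 in the phloem cap, with 205 and 236 in the pith. LOS1, translation elongation factor 2, combined a low ratio (1.17) with a high level, at 742 and 795, 835 and 820, and 866 and 804 CPM. Both its bundle values were the lowest of the 6. The next genes were AT1G69460, a p24 cargo receptor of early secretory vesicles (108 to 128 CPM), SR34a, a serine- and arginine-rich splicing factor (52.4 to 62.5 CPM), CDPK6, a calcium-dependent protein kinase (124 to 149 CPM), and AT3G11130, a clathrin heavy chain (376 to 451 CPM). With ratios of 1.18 to 1.20 they completed the 12 genes within 1.2. AT1G07920 (694 to 850 CPM), AT5G35910 (78.0 to 96.0 CPM) and CLPP5, a plastid CLP protease subunit (91.5 to 113 CPM), completed the 15 most even genes at ratios of 1.22 and 1.23.

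Abundant even genes were scarce. APX1, cytosolic ascorbate peroxidase, which removes hydrogen peroxide, was the most abundant with 2175 and 1841 CPM in the bundle, 2269 and 2302 in the phloem cap, with 1873 and 1890 in the pith. Its phloem cap values exceeded all others, and its ratio was 1.25. AT5G20290, ribosomal protein S8e, had 1583 and 1405, 1700 and 1871, and 1499 and 1599 CPM in the same order. Below them lay PORB, a protochlorophyllide oxidoreductase of chlorophyll synthesis (708 to 941 CPM), emb2386, ribosomal protein L19e (661 to 890 CPM), BTI2, a reticulon-like protein of the endoplasmic reticulum (473 to 594 CPM), cICDH, cytosolic isocitrate dehydrogenase (419 to 556 CPM), and AT4G16830, an mRNA-binding protein (367 to 479 CPM). Among genes with a mean of 500 CPM or more, 8 of 274 were even (2.92%), against 20 of 529 (3.78%) between 200 and 500 CPM, 35 of 889 (3.94%) between 100 and 200 CPM and 59 of 539 (10.9%) below 100 CPM. The floor of 50 CPM caps the ratio that a gene with a mean below 100 CPM can reach, so the last share is set in part by the rule.

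**Figure D2:**
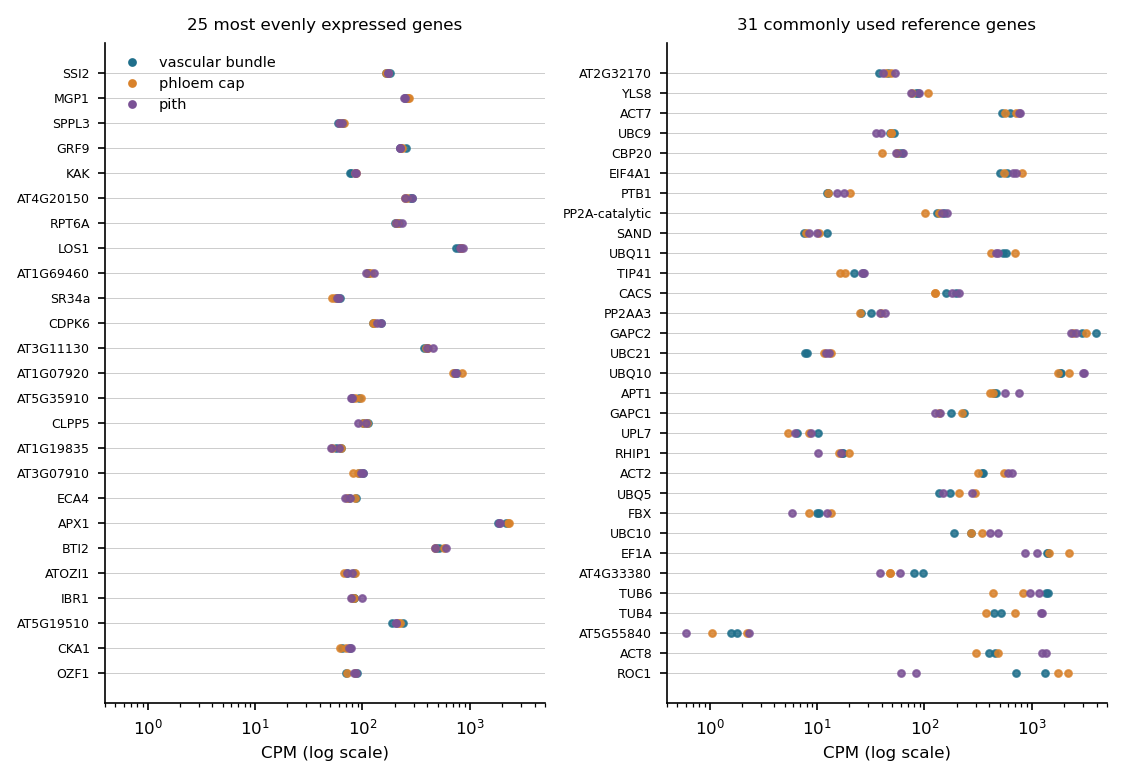
CPM (log axis) in each of the 6 libraries for the 25 even genes with the lowest ratio (left) and for the 31 commonly used reference genes ordered by their ratio (right), 1 point per library and colours for the tissues. Points of the even genes nearly coincide, whereas the pith libraries stand apart for ROC1 (60.7 and 83.6 CPM) and ACT8 (1248 and 1366 CPM).

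Within the even genes, both the 2 libraries of a tissue and the tissue means differed little. The largest ratio between replicates of a tissue had a median of 1.22 over the 122 genes, and the ratio of the highest to the lowest tissue mean had a median of 1.15. In 86 of the 122 genes the replicate ratio was the larger of these. The 2 measures are unlike, since the first is the largest over the tissues of a ratio between single libraries. The second is a ratio of means, which averaging makes smaller, so neither spread can be called the larger. Both phloem cap libraries were above both bundle libraries in 29 even genes and below them in 25 (in either direction, 50.6% of the genes at the CPM floor did not overlap in this comparison). For pith and bundle the counts were 21 higher and 19 lower in pith (70.7% of the genes at the CPM floor did not overlap), and for phloem cap and pith 19 higher and 28 lower in the phloem cap (65.7%). Since the rule limits all these differences, they describe the selection and carry no test. Pith library S35 was the highest of the 6 for 35 even genes and S34 for 24, and S34 was the lowest for 28. Summed over the 122 genes, CPM was level by construction, between 22121 and 23117.

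**Figure D3:**
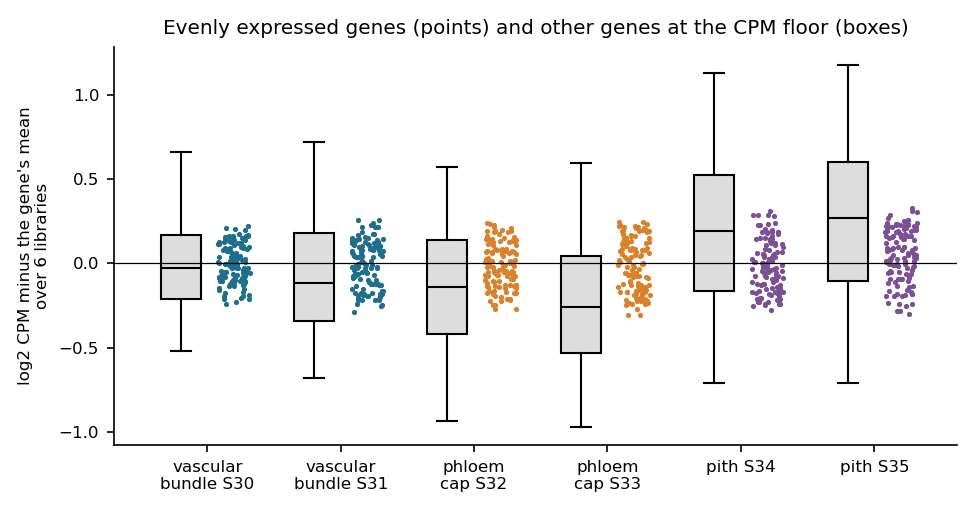
Log2 CPM minus the mean of the same gene over the 6 libraries, for the 122 even genes (points, coloured by tissue) and the other genes at the CPM floor (boxes with median and quartiles, whiskers from the 5th to the 95th percentile). The even genes centre on 0 in each library, while the boxes lie highest in the pith libraries and lowest in phloem cap library S33.

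How level a gene appears depends on the scaling between libraries. TMM factors were 0.997 and 1.04 in the bundle, 1.07 and 1.16 in the phloem cap, with 0.888 and 0.874 in the pith, a span of 1.33 between the extremes, which is close to the limit of 1.4 itself. As a share of all counts, the 122 genes took 2.29% and 2.31% in the bundle, 2.47% and 2.66% in the phloem cap, with 1.96% and 2.02% in the pith. When library totals were used without TMM, 152 genes met the rule and only 40 of the 122 were among them. With DESeq2 size factors 118 genes met it, 111 of them shared, and with TMM factors from genes passing the count filter 119 met it, all shared. Under all 4 scalings, 37 of the 122 genes met the rule. They included 10 of the 12 genes within 1.2, namely SSI2, GRF9, KAK, AT4G20150, RPT6A, LOS1, AT1G69460, SR34a, CDPK6 and AT3G11130, whereas MGP1 and SPPL3 reached ratios of 1.43 and 1.46 on library totals. Genes at the CPM floor lay higher in pith than in bundle by a median of 0.25 on the log2 scale with TMM, and by 0.04 with library totals. Which scaling is right cannot be told from these counts, which contain no added standard.

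The functions held level were compared across 18 gene lists built from product names. Shares cover only genes at the CPM floor, so a gene that falls below it in any library is not counted. Proteasome subunits had the largest share of even genes, 4 of the 10 at the CPM floor (40%, against 5.47% of all genes at the floor), and a median ratio of 1.54 (2.15 over all). RPT6A is described above. RPT4A, RPT3 and the lid subunit AT4G24820 (RPN7) were the others, with 60.04 to 79.8, 64.4 to 88.5 and 107 to 146 CPM. RPT4A and RPT3 had means below 100 CPM, where 10.9% of the genes at the floor were even. The base ATPases RPT5A, RPT1A, RPT2a and RPT5B were left out of the share by their lowest library, with ratios of 1.80, 2.09, 2.32 and 2.43. None of the 48 proteasome genes tested by edgeR was called in any comparison, a call being a fold change above 2 with an adjusted p (Benjamini-Hochberg, quasi-likelihood test) below 0.01. A missing call does not show that a gene is level. In simulated counts edgeR recovered 55% of genes with a log2 fold of 2 in pith against bundle and 56% in each of the other comparisons. Those counts gave every gene the same variability between libraries and changed only well-counted genes. The rates therefore need not hold for the real libraries, and least so in phloem cap against bundle, where edgeR called 0%. Over all genes edgeR called 15.9% in pith against bundle, 12.7% in phloem cap against pith and 0% in phloem cap against bundle, where 3869 of 18528 genes (20.9%) had an unadjusted p below 0.05 and DESeq2 called 1364 genes (6.97%).

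Mitochondrial respiration also had a median ratio (1.66) below that of all genes at the CPM floor. Of 29 respiratory chain genes at the CPM floor, 5 were even (17.2%) and 25 had a ratio of at most 2 (86.2%, against 42.4% of all genes at the floor). AT2G33220, the GRIM-19 subunit of complex I, had 309 and 310 CPM in the bundle, 270 and 243 in the phloem cap, with 274 and 294 in the pith, with both bundle values highest. AT5G13430, a Rieske iron-sulfur protein of complex III, had 56.9 to 73.2 CPM, and 16.4% of its exonic 50-base windows occur elsewhere in the genome, so its counts are uncertain. EdgeR called 4 of 84 respiratory genes higher in pith than in bundle, near the share over all genes (5.44%), and 0 lower (10.5% of all genes). In phloem cap against pith it called 2 of 84 lower (790 of 18201 over all genes) and 0 higher (1517 of 18201).

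Protein synthesis was covered by 3 lists. Of 79 ribosomal protein genes at the CPM floor 7 were even (8.86%), with a median ratio of 2.02 (2.15 over all). AT3G24830 (ribosomal protein L13, 327 to 414 CPM), AT5G35530 (S3, 144 to 183 CPM) and AT2G43030 (L3, 108 to 142 CPM) were the most level of them. Translation factors were even in 6 of 35 cases (17.1%), with LOS1 and AT1G07920 joined by AT5G19510, an EF1B subunit that recharges elongation factor 1 (188 to 238 CPM). Aminoacyl-tRNA synthetases were even in 2 of 7 (28.6%), and all 7 had a ratio of at most 2, with a median of 1.60. In AT4G26870, one of these, both bundle libraries (56.3 and 55.6 CPM) lay below the other 4 (66.6 to 72.4 CPM). In AT4G10320 the pith was lowest, with 66.3 and 59.3 CPM against 76.7 to 82.0 CPM.

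Splicing factors were even in 4 of 23 cases (17.4%), namely SR34a, RSZ21 (89.9 to 117 CPM), the U5 helicase emb1507 (134 to 175 CPM) and AT1G28060, pre-mRNA splicing factor 3 (61.0 to 83.4 CPM). Vesicle coats gave 2 of 14 (14.3%), clathrin heavy chain AT3G11130 and the coatomer beta subunit AT4G31480 (102 to 139 CPM), and SNAREs and tethers gave 1 of 18, NPSN13 (84.3 to 108 CPM). The other lists had no even gene. They included 24 chaperones, 22 RAB and ARF GTPases, 22 transcription factors, 8 nuclear pore and import genes, 6 ubiquitin-conjugating enzymes and 3 protein phosphatase 2A subunits at the CPM floor. Matching by name misplaced or missed some genes. The GTPase list holds RAN-1, RAN2, and FUG1 and AT4G11160, which are also among the translation factors. The even genes RAN3 (ratio 1.39) and PFD3, a prefoldin (1.37), are in none of the lists. A list without an even gene therefore does not show that its function has none.

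The lists farthest from level were secreted cell wall enzymes (0 of 21 even, median ratio 4.09), subunits of the vacuolar proton pump (0 of 8, 3.07), actins and tubulins (0 of 12, 2.94) and photosynthesis proteins (0 of 37, 2.69). Of 60 photosynthesis genes tested, edgeR called 22 lower in pith than in bundle (10.5% of all genes) and 0 higher (5.44%). Of 13 vacuolar proton pump genes, 3 were called higher in pith (5.44% of all genes) and 0 lower (10.5%). The lowest ratio of a vacuolar pump gene at the CPM floor was 2.01.

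**Figure D4:**
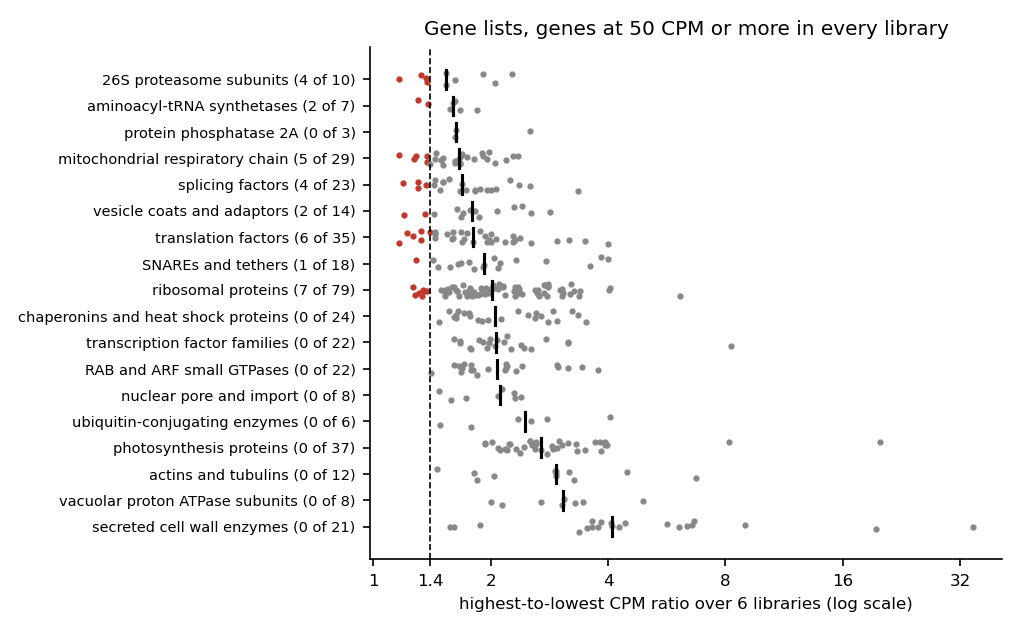
Highest-to-lowest CPM ratio over the 6 libraries (log axis) of each gene at the CPM floor in 18 gene lists, with even genes in red, other genes in grey, a bar at the median of the list and a dashed line at 1.4. Numbers beside each name are even genes of genes at the floor. Medians run from 1.54 for the proteasome to 4.09 for the list labelled secreted cell wall enzymes, which also holds cellulose synthases.

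Commonly used reference genes were then set beside the even genes. The list held 31 genes used to normalize expression in Arabidopsis, of which 18 reached the CPM floor and 0 met the rule (5.47% of all genes at the CPM floor did). With 18 genes and so low a share, a count of 0 does not set them apart from other genes. The rest failed by level, and with TMM 0 of the 31 had a ratio of at most 1.4 at any level. With DESeq2 size factors AT2G32170 did (1.393), and on library totals CBP20 (1.296) and PP2A-catalytic (1.347) did. With TMM the lowest ratio was that of AT2G32170 (1.41), at 37.6 and 45.6 CPM in the bundle, 44.3 and 49.0 in the phloem cap, with 41.1 and 53.0 in the pith. YLS8 (1.44), ACT7 (1.46), UBC9 (1.48), CBP20 (1.56) and EIF4A1 (1.59) followed. Of the 18 genes at the floor, 10 had a ratio of at most 2 (55.6%, against 42.4% of all genes at the CPM floor). Among those above the floor, YLS8, a spliceosome protein, had 87.9 and 82.6 CPM in the bundle, 76.6 and 109 in the phloem cap, with 75.8 and 88.5 in the pith, with the highest value in one phloem cap library and the second lowest in the other. ACT7, an actin, had 532 and 630, 565 and 718, and 763 and 777 CPM, with pith above the other tissues.

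The largest departure was that of ROC1 (AT4G38740), a cytosolic cyclophilin. Its CPM was 1312 and 713 in the bundle, 2168 and 1762 in the phloem cap, with 83.6 and 60.7 in the pith, so that both pith values lay far below the other 4. The log2 difference of pith against bundle was -3.81 ± 0.38 (SE, adjusted p = 7.8e-04), and that of phloem cap against pith 4.77 ± 0.41 (adjusted p = 2.7e-04). ACT8, an actin, had 397 and 454, 305 and 482, and 1248 and 1366 CPM, higher in pith than in bundle by 1.62 ± 0.22 (adjusted p = 0.0025). TUB4, a beta tubulin, had 442 and 513, 376 and 704, and 1232 and 1225 CPM, higher in pith by 1.36 ± 0.22 (adjusted p = 0.0045). These 3 of 31 genes were called in pith against bundle (15.9% of all genes), 1 (ROC1) in phloem cap against pith (12.7%) and 0 in phloem cap against bundle (0%).

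ACT8 and TUB4 were close to the threshold. Without bundle library S30 their adjusted p rose to 0.010 and 0.025, without S31 that of TUB4 was 0.013, and in a fit over all 6 libraries that of TUB4 was 0.024. DESeq2 called ROC1, ACT8 and TUB4 in pith against bundle (23.4% of all genes), and ACT8 together with ROC1 in phloem cap against pith (21%), where edgeR gave ACT8 a log2 difference of -1.73 and an adjusted p of 0.0104. Below these came UBC10 (0.94, adjusted p = 0.033), ACT2 (0.84, 0.024) and UBQ10 (0.74, 0.036), all higher in pith and none past the fold threshold. A 95% interval lying wholly within 2-fold was reached by 12 of the 31 genes in pith against bundle, 14 in phloem cap against bundle and 6 in phloem cap against pith.

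Even genes were also set beside their relatives. In 15 families chosen after the values were seen, 22 even genes stood beside 65 relatives with at least 10 CPM in some library that failed the rule, of which 20 reached the CPM floor. NCLPP7, a CLP protease subunit with 30.9 to 37.0 CPM and a ratio of 1.19, failed it by the floor alone. EdgeR called 10 of the relatives in pith against bundle (15.4%, against 15.9% of all genes) and 6 in phloem cap against pith (9.23%, against 12.7%). Of 9 such 14-3-3 genes, GRF9, GRF7 (114 to 150 CPM) and GF14 PHI (208 to 275 CPM) were even, whereas GRF8 had a ratio of 2.53 and was not called. Of 7 proteasome base ATPases, RPT6A, RPT4A and RPT3 were even, and RPT5B (2.43), RPT2a (2.32) and RPT1A (2.09) were not. These ATPases are partners in the same ring, and none of the 7 was called in a comparison.

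In some families an even gene had a relative that was called in pith against bundle. As a set the relatives were called about as often as all genes (15.4% against 15.9%), so the examples below are single cases. ROC7, a secretory cyclophilin, was even with 240 and 196 CPM in the bundle, 273 and 253 in the phloem cap, with 272 and 213 in the pith, whereas ROC1 had a ratio of 35.7. ROC4, a plastid cyclophilin, had 45.7 and 60.8, 33.8 and 44.0, and 12.2 and 12.9 CPM and was lower in pith than in bundle by 2.09 on the log2 scale (adjusted p = 0.0020). APX1 was even, whereas TL29, an ascorbate peroxidase-related protein of thylakoids, had 51.1 and 72.7, 29.4 and 28.3, and 11.9 and 12.5 CPM and was called lower in pith. PORB was even, and its relative POR C had 23.1 and 24.5, 10.2 and 26.3, and 2.64 and 3.58 CPM, with a log2 difference of -2.94 ± 0.33 (adjusted p = 0.0011). ADF1, an actin depolymerizing factor, was even (113 to 152 CPM), and ADF4 was lower in pith, with 25.3 and 18.98 CPM against 78.4 and 92.1 in the bundle. CLPP5 was even, while its plastid partners were called in opposite directions in pith against bundle, CLPP3 by 1.21 (adjusted p = 0.0076) and CLPP4 by -1.52 (adjusted p = 0.0060) on the log2 scale. Both calls were lost without bundle library S30 (adjusted p = 0.063 and 0.023) or S31 (0.047 and 0.071), and that of CLPP3 also in a fit over all 6 libraries (0.018). Without S31 the calls of ROC4 (adjusted p = 0.015) and ADF4 (0.0101) were lost as well.

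**Figure D5:**
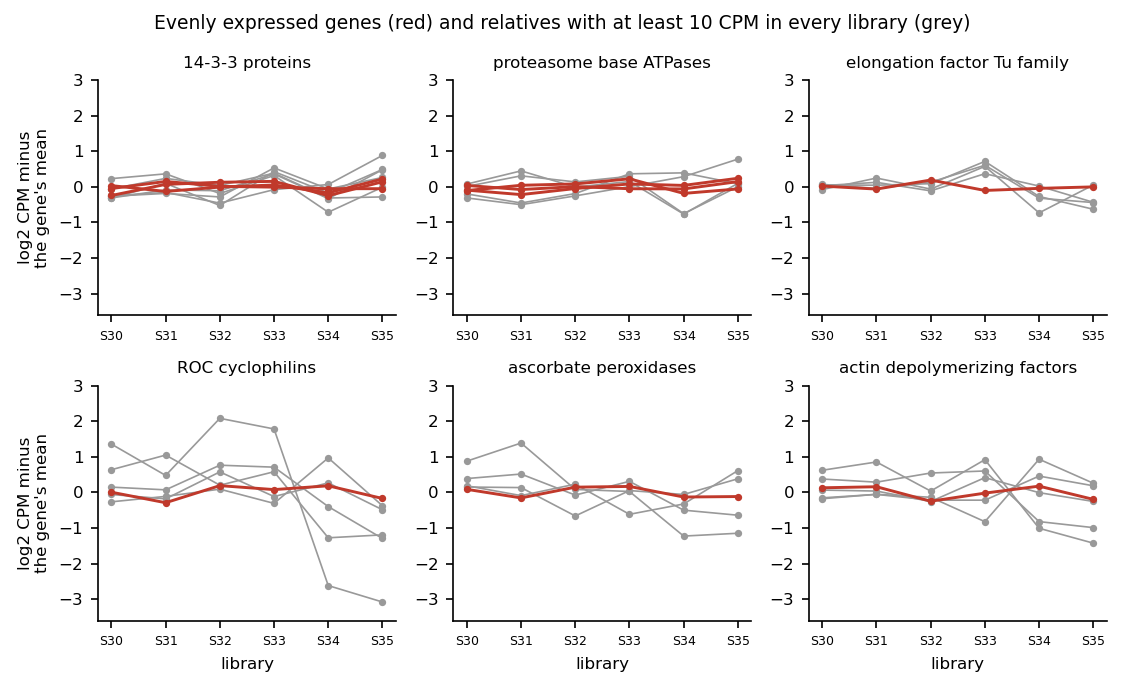
Log2 CPM minus the mean of the same gene, by library (S30 and S31 bundle, S32 and S33 phloem cap, S34 and S35 pith), for even genes (red) and relatives with at least 10 CPM in every library (grey) of 6 families. Red lines stay near 0; the grey line falling farthest in the pith is ROC1.

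Close copies limit some of these values. AT1G07920 is 1 of several elongation factor 1-alpha genes with nearly the same sequence, and 67.2% of its exonic 50-base windows occur elsewhere in the genome, so uniquely mapped reads cover only part of it. Its relative AT5G60390, the usual EF1A reference gene, had 1397 and 1389 CPM in the bundle, 1430 and 2208 in the phloem cap, with 1115 and 870 in the pith, a ratio of 2.54. Its sister copies AT1G07940 and AT1G07930 had ratios of 1.74 and 2.07. ECA4 (23.4%), AT5G13430 (16.4%) and AT4G31480 (11.6%) were the only other even genes with more than 10% of such windows. In all, 40 of the 122 even genes (32.8%, against 27.5% of the other genes at the CPM floor) overlap an annotated gene, among them GRF9, KAK, AT4G20150 and CDPK6. The study counted reads without regard to strand, in a mode (union) that leaves out reads overlapping more than 1 gene. Counts of these genes may therefore lack reads from the shared stretch.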

How the data were processed

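Per the labels and methods, the authors aligned single-end reads of 50 bases to TAIR10 with STAR 2.5.0a, retained reads mapping to 1 place, and deposited raw counts per gene that ignore strand and include introns. Of the count columns, 0 were unused. Groups came from the labels. R 4.3.3, edgeR 4.0.16, DESeq2 1.42.0 and Python 3.11.15 were used. CPM used TMM factors over all genes and libraries. Tests used filterByExpr, TMM, robust glmQLFit and glmQLFTest on the 4 libraries compared, with Benjamini-Hochberg adjustment over all genes tested. The SE was derived from the F statistic. On simulated counts the test recovered 56%, 55% and 56% of 100 genes with a log2 fold of 2 (phloem cap against bundle, pith against bundle, phloem cap against pith; 18556, 17922 and 18321 genes tested) and 100% of those with a log2 fold of 4 in each. The simulation gave all genes the same variability between libraries and changed only well-counted genes, so it is no measure of power in the real libraries. The members, gene lists and tests were chosen with earlier results of these data known. Named genes are reference genes, the 15 most even and 10 most abundant even genes, the 3 most even of each list and genes at the limits; relatives, role groups and families were picked after seeing values. Gene models, and sequences, are from RefSeq TAIR10.1, in which all 37051 identifiers matched. Alternatives were other scalings, limits, tests, filters and leaving out each library.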

Additional observations from a re-analysis of the deposited data

How the results depend on the processing

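The number of even genes followed its limits. It was 42 at a ratio of 1.3, 234 at 1.5, 947 at 2, 294 at a floor of 20 CPM, 55 at 100 CPM and 654 when the ratio was taken over tissue means, against 122. Leaving out 1 library gave 138 to 269 genes, with 113 to 122 of the 122 retained; the highest number came without phloem cap library S33, and fewer libraries can only lower a gene's ratio apart from rescaling. Reference genes meeting the rule numbered 0, and 1 on library totals, 2 at a ratio of 1.5, 10 at 2 and 0 to 4 with 1 library left out. Reference genes called in phloem cap against pith numbered 1, and 2 with DESeq2, with no count filter, in the fit over all 6 libraries and at an adjusted p below 0.05. With 1 library left out, which assumes that the lone library varies like the others, the calls were 0 to 1 in phloem cap against bundle (TUB6 without S33), 1 to 4 in pith against bundle (1 without S30, 4 without S35) and 1 to 3 in phloem cap against pith (3 without S33). None of the log2 differences recomputed (reference genes with an unadjusted p below 0.05, and ROC4, TL29, POR C, ADF4, CLPP3 and CLPP4, whose alternatives were added after seeing the data) changed sign. The study cut out phloem cap and pith first and the remaining bundle afterwards, so libraries of different tissues may come from the same plants. The labels do not say which libraries belong together. No paired analysis was made, and the tests treated all libraries as independent.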
